A study of Homo sapiens with 6 samples.

Results

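The libraries of Cal27 cells carrying a cornulin lentivirus were set against all 4 libraries in which cornulin was low, and genes were sought whose levels in both cornulin libraries lay outside the range of the 4 others. Total RNA was sequenced in 6 libraries of Cal27, an epithelial cell line from a human squamous carcinoma of the tongue. The 2 CRNN libraries came from cells transduced with a lentivirus carrying the cornulin gene (CRNN), and the 2 GFP libraries from cells transduced with a GFP control vector. Per the labels, both were transduced with polybrene at 8 µg per ml and harvested at 48 hours. The 2 untreated libraries (UNT) came from Cal27 cells given no virus, and the labels give them no polybrene and no harvest time. All 6 share the cell line, the culture medium and batch 1, and the series calls the 2 libraries of a group biological replicates. GFP and untreated libraries were joined into 1 control side of 4, so a difference between virus-treated and virus-free cells counts as spread within it. The labels do not name the promoter that drives the insert, the share of cells that took up virus, or the cornulin protein made.

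Of 57820 genes in the count table, 16396 had enough reads to be tested, and these held 99.9% of all counts. Among them, 1167 genes had both CRNN libraries above all 4 controls, which is 7.12% of tested genes. Another 929 genes, 5.67%, had both CRNN libraries below all 4 controls. These 2096 genes were chosen by the order of the libraries alone, on the log2 scale of CPM (counts scaled so that all libraries have 1 common total), with no minimum difference. The order is a description: with 2 libraries against 4, an exact permutation test of 1 gene cannot give a one-sided p below 0.0667. The CRNN pair is 1 of 15 ways to pick 2 of the 6 libraries. Were all libraries interchangeable, a share of about 0.0667 of genes would lie on each side. The shares found, 7.12% and 5.67%, were near it.

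Cornulin belongs to the S100 fused-type family, calcium-binding proteins whose genes lie together in the epidermal differentiation complex on chromosome 1. It is made late in the differentiation of stratified squamous epithelium, most of all in the mouth and oesophagus, and its level is often low in squamous carcinomas. The gene groups that recur below are also textbook ones. Type I interferons signal through JAK kinases to a complex that holds STAT2 and IRF9 and binds the interferon-stimulated response element in the promoters of antiviral genes. Metallothioneins are small cysteine-rich proteins that bind zinc and copper, and the transcription factor MTF1 drives them through metal response elements. YAP and TAZ act through TEAD factors on genes of the cell surface and matrix, CCN1, CCN2 and THBS1 among them, many of which also respond to TGF-beta.

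Library totals ran from 11817105 counts in GFP replicate 2 to 28041227 in untreated replicate 1, and genes of the mitochondrial chromosome took between 22.5% and 29.3% of them. The pairs of replicates differed in how closely they matched. The median SD of log2 CPM within a pair was 0.107 in CRNN cells, 0.303 in GFP cells and 0.256 in untreated cells. More than 4-fold apart were 6 genes in the CRNN pair, 67 in the GFP pair and 330 in the untreated pair. Untreated replicate 1 was the control farthest from the CRNN libraries for 39.6% of the genes above and 42.0% of those below, and untreated replicate 2 for 8.48% and 6.35%. All 12 squamous epithelial markers examined were tested, and their summed level was 5762 and 6606 CPM in CRNN libraries and between 4521 and 6754 CPM in controls. Of 10 fibroblast markers 5 were tested, with a summed level of 5.12 and 5.22 CPM in the CRNN libraries and between 3.84 and 8.14 CPM in controls. Immune markers, 3 of 10 tested, summed to 7.93 and 9.16 CPM in the CRNN libraries and to between 5.45 and 6.61 CPM in controls, most of it CD14. The 3 tested endothelial markers summed to between 8.75 and 14.2 CPM in 5 libraries and to 53.4 CPM in untreated replicate 1.

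Cornulin itself was the 1 gene called higher when edgeR compared the CRNN libraries with the 4 joined controls. CRNN (chr1:152409243-152414263, minus strand, GRCh38 as annotated in GENCODE 44) held 964 and 1028 CPM in the CRNN pair, 3.06 and 2.55 CPM in the GFP pair and 3.51 and 2.08 CPM in the untreated pair. All 4 controls were low, and the CRNN libraries lay 8.06 log2 units above the nearest of them. The log2 fold change was 8.47 (SE 0.30) and the adjusted p was 6.37e-06 (edgeR quasi-likelihood test over all tested genes), in 2 of 2 libraries. The counts cannot tell the vector's copy from the chromosomal one, since reads of both are counted on the same gene, and GFP has no value in the table.

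No other gene passed that test. The calls were thus 1 gene higher, 0.00610% of those tested, and 0 genes lower, which is 0%, and the second smallest adjusted p was 0.999. At an unadjusted edgeR p under 0.05, 210 genes were higher (1.28%) and 250 were lower (1.52%). DESeq2 called 3 genes higher (CRNN, IFI6 and SESN3) and 2 lower (SUSD2 and ENSG00000241781.2, which has no name in the annotation). With untreated replicate 1 left out, edgeR called 12 genes higher and 0 lower, and limma-voom called CRNN alone with all 6 libraries. Beyond CRNN, each gene named below is therefore given by its values and its place against the controls, and no change is claimed for it.

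**Figure D1:**
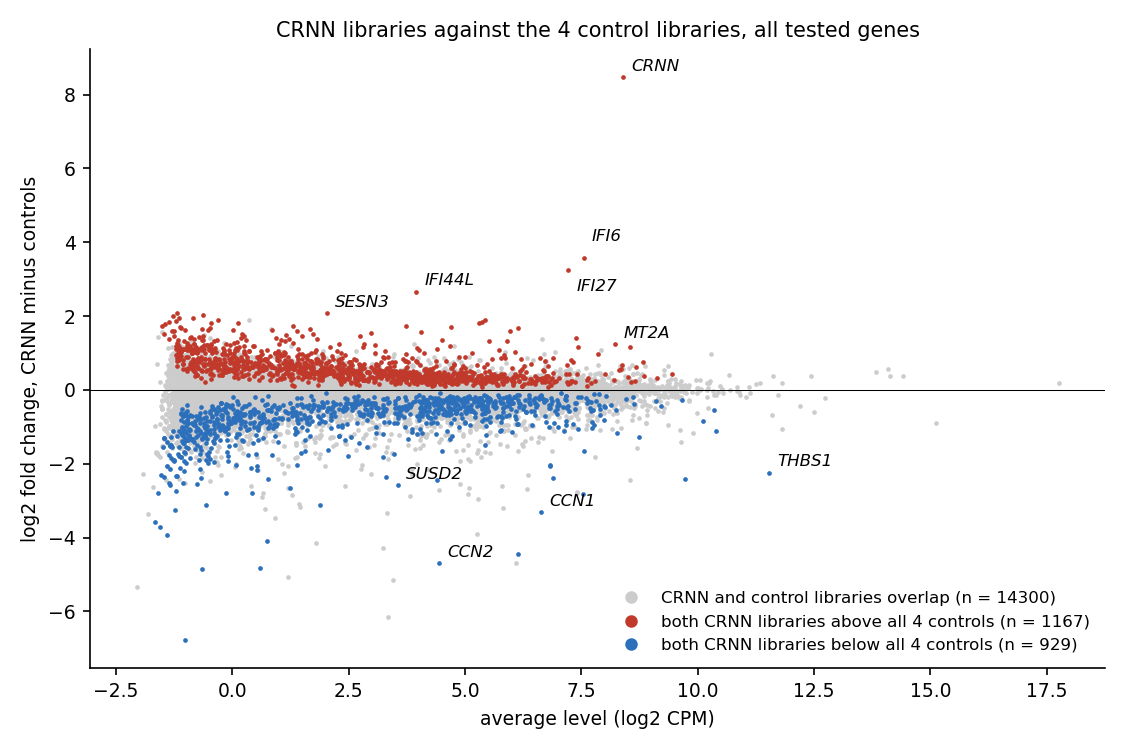
Log2 fold change of the CRNN libraries against the 4 controls (vertical axis) by average level in log2 CPM (horizontal axis), 1 point per tested gene; red and blue mark the 1167 genes above and the 929 genes below all controls, and grey the 14300 that overlap them. CRNN stands alone at 8.47, and most marked genes lie close to 0.

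Most of the 2096 genes cleared the controls by little. The gap, taken from the nearest CRNN library to the nearest control, had a median of 0.117 log2 units on either side, which is 1.08-fold. It was under 0.1 for 530 of the genes above and 415 of those below. A gap of at least 0.5 was found for 89 genes above and 70 below. At least 1 log2 unit separated the CRNN libraries from every control for 12 genes above, 0.0732% of those tested, and for 8 below, 0.0488%. With any 1 library left out, between 1678 and 3115 genes lay above and between 1462 and 2848 below, most on both sides without CRNN replicate 1, and fewer libraries make the order easier to meet. The control that set the gap was most often untreated replicate 2, for 36.9% of genes above and 40.4% of genes below. At the edge of the rule lay ZNF274, a zinc-finger gene whose lower CRNN library and highest control both held 20.9 CPM, and just outside it SLC16A7, with 5.67 CPM in both. KIF1B, a kinesin motor, was the last gene inside on the lower side with 48.2 CPM in its higher CRNN library and in its lowest control. LINC02977, a long noncoding RNA, lay just outside it at 1.07 CPM in both.

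**Figure D2:**
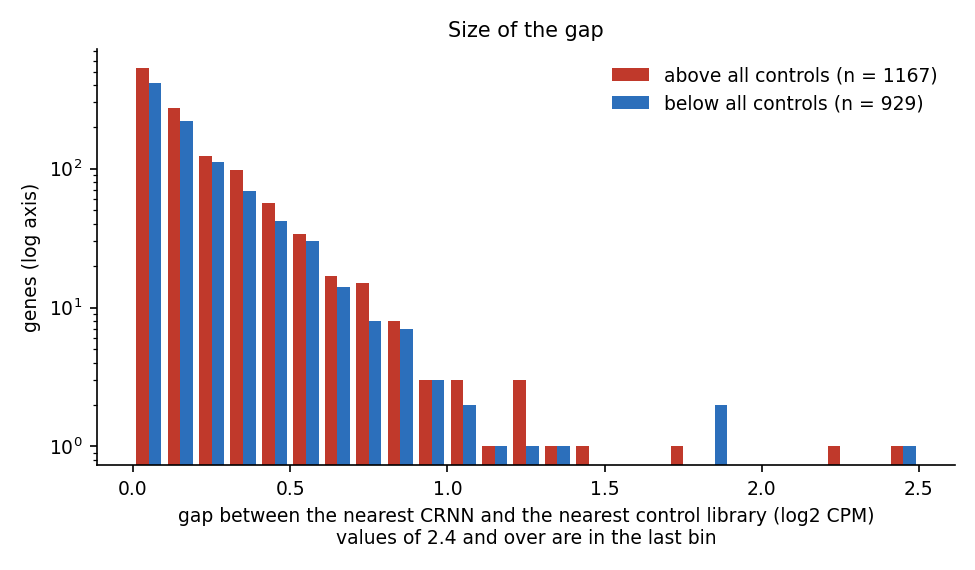
Number of genes (vertical log axis) by the gap between the nearest CRNN library and the nearest control in log2 CPM (horizontal axis), for genes above (red) and below (blue) all 4 controls. The first bin, under 0.1, holds 530 and 415 genes, and the last bin gathers all gaps of 2.4 and over, CRNN among them.

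Many of the wide gaps belonged to thinly read genes. Of the 89 genes with a gap of 0.5 above the controls, 34 had no library with 30 counts or more, and so had 39 of the 70 below. Among the 12 genes with a gap of 1 above, 6 had over 100 counts in both CRNN libraries: CRNN, IFI6, IFI27, SESN3, TMEM229B and IFI44L. The others were NFATC4, SOX21, DACT1, LINC01559, the pseudogene HSPE1P4 and a gene with no name in the annotation, with at most 70 counts in any library. DACT1, an inhibitor of Wnt signalling, had 67 and 70 counts with CRNN, 20 and 14 with GFP and 34 and 29 in untreated cells. On the lower side the 8 genes were MIR1915HG, NTF3, LINC01589, the pseudogene CSPG4P12, another pseudogene with no symbol, and 3 genes with no name in the annotation. Gene ENSG00000239776.2 had 125 and 85 counts with CRNN, 752 and 3720 with GFP and 1154 and 789 in untreated cells, and ENSG00000241781.2 had 3 and 3 counts against 41, 67, 42 and 19. NTF3, which encodes a neurotrophin, had 7 and 6 counts in CRNN libraries and between 14 and 31 in controls.

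**Figure D3:**
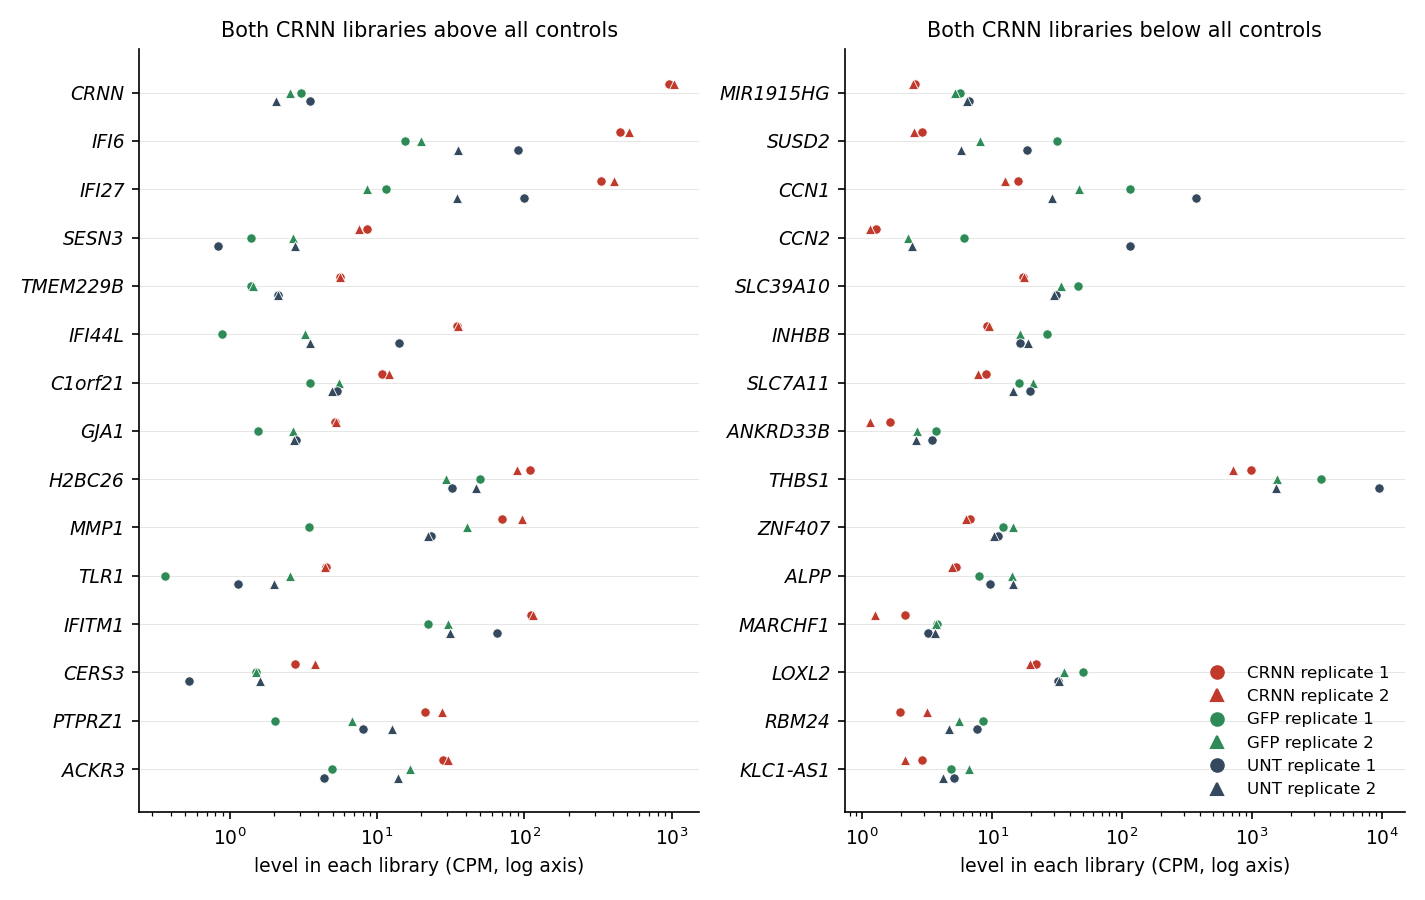
Level in each library in CPM (horizontal log axis) of the 15 named genes with an average of at least 1 log2 CPM and the widest gap above (left) and below (right) the 4 controls, with circles for replicate 1 and triangles for replicate 2. CRNN (red) lies outside GFP (green) and untreated (dark) libraries in every row, and CCN2 in untreated replicate 1 reaches 115 CPM against 1.27 and 1.16 CPM in CRNN.

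Interferon-stimulated genes made up 3 of the 12 genes with a gap of 1 above the controls. On a list of interferon-stimulated genes, 20 of 53 tested members had both CRNN libraries above all controls, which is 37.7% beside 7.12% of all tested genes, and none lay below. A positive log2 fold change was found for 50 of the 53, the median over the list was 0.79 beside -0.02 over all tested genes, and 0 members passed the adjusted test. At an unadjusted edgeR p under 0.05, 16 members were higher, beside 1.28% of all tested genes, and 0 lower, beside 1.52%. As in any bulk sample, more responding cells and more RNA per responding cell cannot be told apart.

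IFI6, an interferon-induced membrane protein that restrains apoptosis, had the widest gap above the controls after CRNN. It held 445 and 514 CPM with CRNN, 15.6 and 19.95 with GFP and 90.4 and 35.3 in untreated cells. Both CRNN libraries were above every control, and untreated replicate 1 was the nearest to them. Its log2 fold change was 3.57 (SE 0.60), with 4.76 against GFP and 2.93 against untreated cells. IFI27, another small interferon-induced membrane protein, held 329 and 404 CPM in CRNN cells, against 11.6 and 8.54 in GFP cells and 99.9 and 34.7 in untreated ones. The 2 GFP libraries were lowest and untreated replicate 1 was again the nearest control, with a log2 fold change of 3.24 (SE 0.80). IFI44L, another interferon-induced gene, held 34.7 and 35.3 CPM in the CRNN pair, 0.883 and 3.27 CPM in the GFP pair and 14.1 and 3.52 CPM in the untreated pair, and its log2 fold change was 2.66 (SE 0.75). GFP replicate 1 was its lowest library.

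The membrane proteins of this response and the enzymes that sense double-stranded RNA also lay above all controls. IFITM1, which hinders the entry of enveloped viruses, held 112 and 115 CPM with CRNN, 22.1 and 30.6 with GFP and 65.1 and 31.2 in untreated cells (log2 fold change 1.60, SE 0.38). IFITM3, its close relative, held 569.9 and 607 CPM in CRNN cells, against 175 and 203 in GFP cells and 447 and 231 in untreated ones. IFITM2 cleared the controls by 0.06 log2 units. The IFITM genes are near-identical in sequence, so reads may have been split between them. OAS3, one of the synthetases that activate RNase L on double-stranded RNA, held 286 and 286 CPM in the CRNN pair, 72.6 and 100.3 CPM in the GFP pair and 181 and 79.9 CPM in the untreated pair (log2 fold change 1.40, SE 0.35). OAS2, its neighbour on chromosome 12 with 1935 bases between them, held 126 and 133 CPM with CRNN, 11 and 28.7 with GFP and 86.6 and 34.1 in untreated cells. For OAS1, the third synthetase, the levels were 66.5 and 83.8 CPM in CRNN cells, against 7.58 and 13.5 in GFP cells and 47.2 and 16.9 in untreated ones. In each of these 5 genes untreated replicate 1 lay closest to the CRNN libraries.

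The pathway itself showed smaller differences. STAT2, a subunit of the complex that binds the response element, held 222 and 216 CPM in the CRNN pair, 109.5 and 122 CPM in the GFP pair and 124 and 139 CPM in the untreated pair (log2 fold change 0.82, SE 0.21). Its 4 controls lay within a narrow range, and both CRNN libraries were above it. On the list of interferon receptors and sensors, 4 of 24 tested members were above all controls (16.7% beside 7.12% of all tested genes) and 0 below. Without untreated replicate 1, 9 members were above, beside 11.8% of all genes then tested. The 4 were IRF1 and IRF2, an activator and a repressor of interferon genes, AIM2, a sensor of cytosolic DNA, and IL10RB, a chain of the receptors for interferon lambda and IL-10. AIM2 held 12 and 12.7 CPM with CRNN, 1.87 and 7.02 with GFP and 9.32 and 6.49 in untreated cells. IRF1 held 135 and 154 CPM in CRNN cells, against 82.4 and 109 in GFP cells and 55.7 and 119.8 in untreated ones, where untreated replicate 1 was the lowest library. Off the list, TLR1, a toll-like receptor for bacterial lipopeptides, held 4.53 and 4.46 CPM in the CRNN pair, 0.364 and 2.55 CPM in the GFP pair and 1.15 and 2 CPM in the untreated pair (log2 fold change 1.59, SE 0.56).

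Other members of the interferon list were as high in untreated replicate 1 as in the CRNN libraries. MX1, a GTPase that blocks viral replication, held 165 and 176 CPM with CRNN, 15.7 and 29.2 with GFP and 188 and 26.7 in untreated cells. ISG15, a ubiquitin-like modifier, held 381 and 368 CPM in CRNN cells, against 92.5 and 77.7 in GFP cells and 377 and 162 in untreated ones. XAF1, a proapoptotic protein, held 21.1 and 27.2 CPM in the CRNN pair, 1.35 and 3.11 CPM in the GFP pair and 33 and 2.52 CPM in the untreated pair. The CRNN libraries of these 3 genes were above GFP and untreated replicate 2. Both were below untreated replicate 1 for MX1 and XAF1, and for ISG15 they lay on either side of untreated replicate 1. That library was the highest control for 49 of 53 list members, and GFP replicate 1 the lowest for 45. Without untreated replicate 1, 49 of 53 members lay above the remaining controls, beside 11.8% of all genes then tested. Of the 12 genes that edgeR then called, 10 were on the interferon list (IFI6, IFI27, IFI44L, IFITM1, OAS1, OAS3, MX1, MX2, XAF1 and IRF7), and the others were CRNN and TAGLN. The log2 fold change of IFI6 was then 4.34 (edgeR adjusted p = 0.00101) and that of IFI27 4.31 (adjusted p = 0.00972). TAGLN, an actin-binding protein, held 20.2 and 17.1 CPM with CRNN, 1.04 and 2.08 with GFP and 125 and 0.721 in untreated cells, and its log2 fold change was -0.79 with all 6 libraries and 3.95 without untreated replicate 1. In antigen presentation, a set that interferons also induce, 1 of 19 tested members was above all controls (5.26% beside 7.12%). Without untreated replicate 1, 13 of 19 were above, beside 11.8% of all genes then tested. The 1 above all controls was PSMB9, a subunit of the immunoproteasome, with 50.1 and 60.4 CPM in CRNN cells, against 27.1 and 32.1 in GFP cells and 49.8 and 33.9 in untreated ones.

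**Figure D4:**
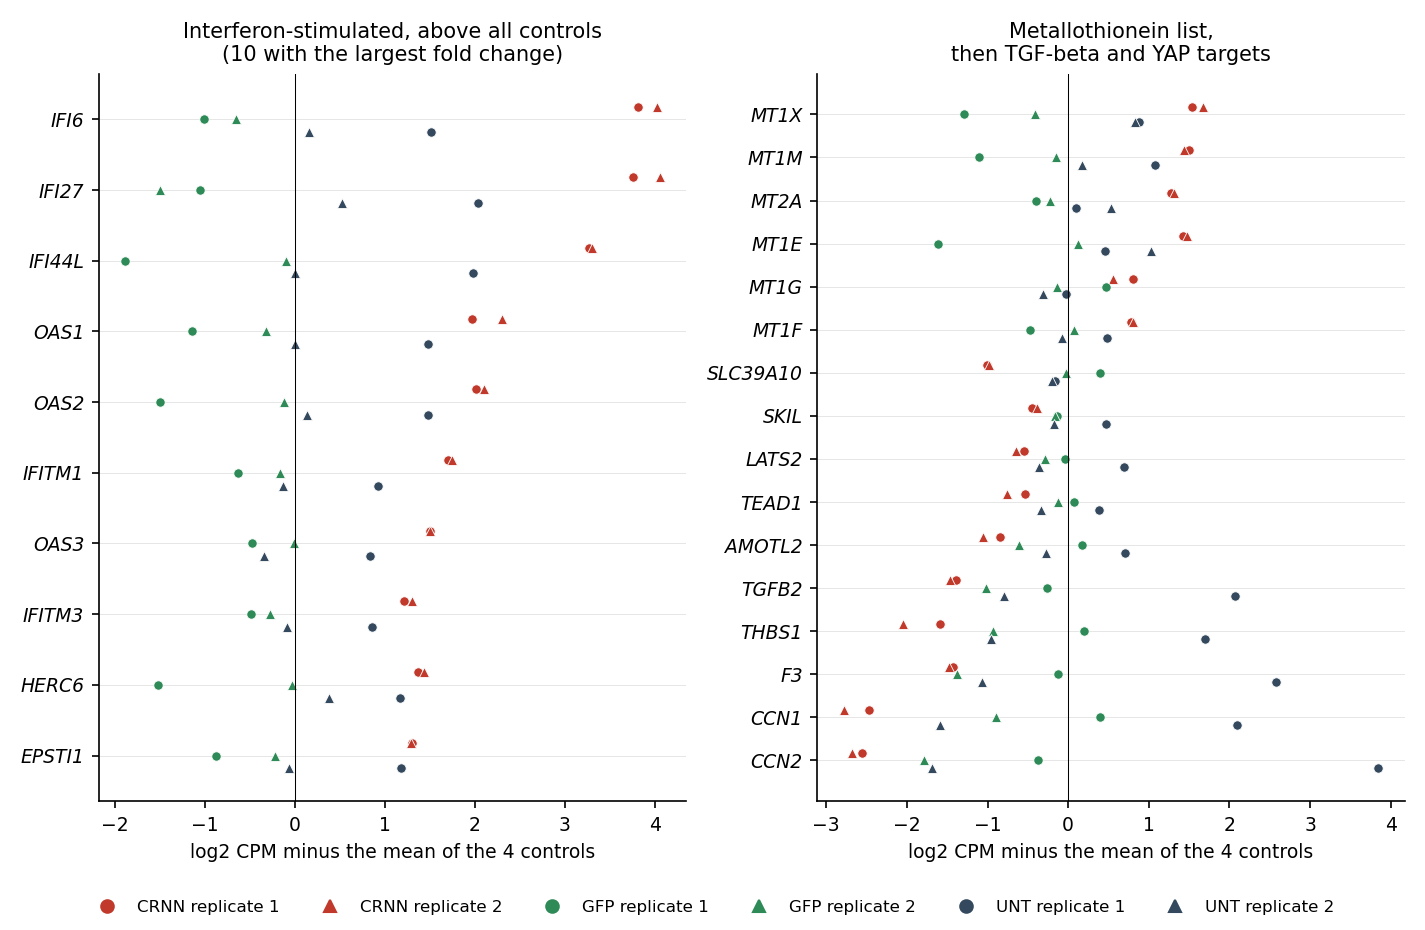
Log2 CPM of each library minus the mean of the 4 controls (horizontal axis), 1 row per gene. Circles mark replicate 1 and triangles replicate 2. The left panel holds the 10 interferon-stimulated genes above all controls with the largest fold change. The right panel holds the members of the metallothionein list outside the controls, followed by the TGF-beta and YAP targets below all controls. Untreated replicate 1 is the control nearest to CRNN in the rows on the left and the farthest from it among the TGF-beta and YAP targets.

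Promoters of the interferon genes were read for the response element, since the group shares it by textbook account. Promoter sequences came from RefSeq (GRCh38.p14) as 250 bases before to 50 after each start. The motif searched was GAAANNGAAA on both strands, where N is any base, and it was held by 996 of 27305 RefSeq promoters of this length (3.65%). Of the 20 interferon genes above all controls, 17 had a promoter in the table and 10 of these held the motif (58.8%). The other 33 tested members of the list had 24 promoters, of which 17 held it (70.8%). Among all genes above the controls 35 of 790 promoters held it (4.43%), among those below 8 of 555 (1.44%), and among all tested genes 2.69%. The 5 stretches printed here belong to the genes with the widest gaps on that list that held a match, 5′ to 3′ on the gene's strand, with each match in capitals. They are at chr1:27672251-27672373, minus strand (IFI6); chr14:94110603-94110675, plus strand (IFI27); chr1:78620259-78620409, plus strand (IFI44L); chr11:313975-314034, plus strand (IFITM1); and chr12:112938306-112938473, plus strand (OAS3).
IFI6: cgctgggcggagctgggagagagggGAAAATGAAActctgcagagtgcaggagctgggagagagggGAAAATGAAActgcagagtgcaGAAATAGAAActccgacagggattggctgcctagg
IFI27: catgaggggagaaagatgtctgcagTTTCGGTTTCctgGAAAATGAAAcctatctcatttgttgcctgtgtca
IFI44L: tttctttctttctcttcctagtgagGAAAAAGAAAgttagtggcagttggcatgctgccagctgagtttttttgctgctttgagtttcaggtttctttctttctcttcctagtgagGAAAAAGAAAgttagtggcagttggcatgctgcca
IFITM1: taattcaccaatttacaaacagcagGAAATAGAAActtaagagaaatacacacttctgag
OAS3: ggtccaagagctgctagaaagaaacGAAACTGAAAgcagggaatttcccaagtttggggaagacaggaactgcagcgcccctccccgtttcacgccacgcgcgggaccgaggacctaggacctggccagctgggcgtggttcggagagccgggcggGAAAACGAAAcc
IFI6 held 3 matches in this stretch, IFI27, IFI44L and OAS3 held 2 each and IFITM1 held 1. In IFI27 the first match reads on the opposite strand. A match describes letters only, and binding was not measured.

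Of the 35 gene lists described here, the metallothioneins had the largest share of members above the controls. Of 9 tested members of the list, which adds zinc transporters and MTF1 to the metallothioneins, 6 lay above all controls (66.7% beside 7.12% of all tested genes) and 1 below (11.1% beside 5.67%), with 0 passing the adjusted test. All 6 were metallothioneins. MT2A, the most widely expressed of them in human cells, held 479 and 493 CPM in the CRNN pair, 149.8 and 169 CPM in the GFP pair and 212 and 287 CPM in the untreated pair (log2 fold change 1.25, SE 0.28). The CRNN libraries were close together, and both GFP libraries lay below both untreated ones. MT1X held 36.4 and 39.9 CPM with CRNN, 5.04 and 9.34 with GFP and 23 and 22.3 in untreated cells (log2 fold change 1.35, SE 0.51). MT1E held 269 and 277 CPM in CRNN cells, against 32.5 and 109 in GFP cells and 137 and 204 in untreated ones, with GFP replicate 1 the lowest library. MT1M, at low levels, held 3.94 and 3.79 CPM in the CRNN pair, 0.571 and 1.2 CPM in the GFP pair and 2.94 and 1.52 CPM in the untreated pair, and the CRNN pair lay above untreated replicate 1. MT1F held 4.35 and 4.41 CPM with CRNN, 1.77 and 2.63 with GFP and 3.51 and 2.36 in untreated cells. MT1G was barely read, with between 0.2 and 0.544 CPM in all 6 libraries. Metallothionein genes are near-identical copies, so the split of reads among them is uncertain.

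The zinc transporters on the list lay elsewhere. SLC39A10, which carries zinc into cells, was the member below and held 17.2 and 17.6 CPM in CRNN cells, against 45.7 and 33.9 in GFP cells and 31 and 30.1 in untreated ones (log2 fold change -1.02, SE 0.25), and the groups did not overlap. SLC30A1, the zinc exporter that MTF1 also drives, held 19.6 and 18.9 CPM in the CRNN pair, 3.06 and 9.34 CPM in the GFP pair and 169 and 19.5 CPM in the untreated pair. Its CRNN libraries lay inside the range of the controls, which untreated replicate 1 stretched. MTF1 held 16.4 and 16 CPM with CRNN, 17.3 and 20.2 with GFP and 33 and 15.3 in untreated cells, also overlapping. Leaving out any 1 library kept the number of members above at 6, beside 10.4% to 17.6% of all genes then tested.

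The metal response element was searched as TGCACNC or TGCGCNC on both strands, and 29.3% of RefSeq promoters held at least 1 match, as did 38.8% of those of tested genes. Only MT2A and MT1X of the 6 genes were in the promoter table, and both are printed because they hold several matches, in capitals, at chr16:56608334-56608583, plus strand (MT2A) and chr16:56682295-56682448, plus strand (MT1X).
MT2A: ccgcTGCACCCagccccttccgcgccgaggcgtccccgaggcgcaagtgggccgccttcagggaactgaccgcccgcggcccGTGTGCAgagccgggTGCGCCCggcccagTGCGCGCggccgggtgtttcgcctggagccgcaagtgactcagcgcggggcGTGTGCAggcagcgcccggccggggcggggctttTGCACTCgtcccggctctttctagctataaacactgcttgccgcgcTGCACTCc
MT1X: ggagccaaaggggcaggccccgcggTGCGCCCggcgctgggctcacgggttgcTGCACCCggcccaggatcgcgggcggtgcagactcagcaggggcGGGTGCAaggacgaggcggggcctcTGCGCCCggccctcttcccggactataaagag
MT2A held 7 matches in the 250 bases before its start and MT1X held 4. The other members are named only.

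Genes of the matrix and of TGF-beta and YAP signalling lay on the lower side. Of 24 tested members of that list, 9 had both CRNN libraries below all controls, which is 37.5% beside 5.67% of all tested genes. On the upper side lay 1 member (ID1), 4.17% beside 7.12%. The median log2 fold change of the list was -0.52, and 20 of 24 values were negative. None passed the adjusted test, and at an unadjusted edgeR p under 0.05, 7 members were lower, beside 1.52% of all tested genes. The secreted proteins had the widest gaps. THBS1, thrombospondin 1, a matrix protein that activates latent TGF-beta, held 979 and 710.3 CPM in CRNN cells, against 3365 and 1544 in GFP cells and 9532 and 1519 in untreated ones (log2 fold change -2.24, SE 0.78). CCN1, a matricellular protein, held 15.7 and 12.6 CPM in the CRNN pair, 114 and 46.8 CPM in the GFP pair and 373 and 29 CPM in the untreated pair (log2 fold change -3.31, SE 1.00). CCN2, also called connective tissue growth factor, held 1.27 and 1.16 CPM with CRNN, 6.08 and 2.23 with GFP and 115 and 2.4 in untreated cells (log2 fold change -4.69, SE 1.84). In these 3 genes untreated replicate 1 was the highest library and GFP replicate 1 the next.

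Without untreated replicate 1 the log2 fold change was -1.56 for CCN2, -2.17 for CCN1 and -1.35 for THBS1. In that setting 9 of the 23 members then tested lay below the remaining controls, beside 9.86% of all genes then tested. The adjusted p of the 3 genes was then between 0.389 and 0.742 in edgeR. These sizes were smaller than with all 6 libraries. TGFB2, a TGF-beta ligand, held 37.5 and 35.8 CPM in CRNN cells, against 82.3 and 48.7 in GFP cells and 416 and 57.1 in untreated ones. F3, tissue factor, held 222 and 214 CPM in the CRNN pair, 548 and 229 CPM in the GFP pair and 3552 and 283 CPM in the untreated pair. The nearer of its CRNN libraries lay only 0.04 log2 units below GFP replicate 2. The nuclear and junctional members had smaller differences. AMOTL2, a YAP target that holds YAP at cell junctions, held 134 and 115 CPM with CRNN, 271 and 158 with GFP and 394 and 199 in untreated cells (log2 fold change -1.04, SE 0.37). TEAD1, the DNA-binding partner of YAP, held 69.5 and 59.6 CPM in CRNN cells, against 107 and 92.6 in GFP cells and 132 and 80.1 in untreated ones (log2 fold change -0.67, SE 0.26). The kinase LATS2 and the SMAD repressor SKIL were the other members below, with gaps of 0.19 and 0.21 log2 units. Without GFP replicate 2, the lowest control for 10 of the 24, 13 members lay below the remaining controls, beside 9.61% of all genes then tested.

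The TEAD motif was searched as GGAATG on both strands, and 14% of RefSeq promoters held it, as did 11% of those of tested genes. It was in 4 of the 7 promoters found for the 9 members below and in 2 of the 13 found for the others. CCN2 and THBS1 are printed as the members with the widest gaps that held it, with matches in capitals, at chr6:131951437-131951566, minus strand (CCN2) and chr15:39581008-39581063, plus strand (THBS1); CCN1 is named only.
CCN2: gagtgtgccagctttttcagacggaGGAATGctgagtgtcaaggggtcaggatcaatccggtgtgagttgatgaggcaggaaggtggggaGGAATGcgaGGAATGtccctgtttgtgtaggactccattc
THBS1: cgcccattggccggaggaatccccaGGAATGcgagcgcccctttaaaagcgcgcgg
CCN2 held 3 matches in this stretch and THBS1 held 1.

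Feedback genes of growth factor signalling lay mainly on the lower side. On the list of EGFR and MAPK feedback genes, 6 of 26 tested members lay below all controls (23.1% beside 5.67%) and 2 above (7.69% beside 7.12%), with a median log2 fold change of -0.86 and 0 past the adjusted test. SPRY4, an inhibitor of receptor tyrosine kinase signalling, held 0.725 and 0.446 CPM in the CRNN pair, 8.36 and 1.04 CPM in the GFP pair and 9.13 and 1.6 CPM in the untreated pair (log2 fold change -3.10, SE 0.96). Its controls differed by several fold among themselves, with GFP replicate 2 and untreated replicate 2 nearest to the CRNN libraries. CCND1, cyclin D1, which drives entry into the cell cycle, held 134 and 136 CPM with CRNN, 328 and 183 with GFP and 348 and 188 in untreated cells (log2 fold change -0.96, SE 0.34). EPHA2, an ephrin receptor kinase, held 83.1 and 70.5 CPM in CRNN cells, against 277 and 89.1 in GFP cells and 513 and 93 in untreated ones. ERRFI1, an EGFR inhibitor, held 29.6 and 32.8 CPM in the CRNN pair, 43 and 34.3 CPM in the GFP pair and 537 and 35.3 CPM in the untreated pair. In all 4 genes the second replicates of both control groups were nearest to the CRNN libraries and the first replicates were higher. PHLDA1 and SPRED2 were the remaining members below, and EPHA4 and LRIG1, a receptor kinase and a negative regulator of EGFR, were above. Untreated replicate 1 was the highest control for 15 of the 26 genes and GFP replicate 2 the lowest for 16, and without GFP replicate 2 the members below numbered 13, beside 9.61% of all genes then tested. Among the 22 immediate early genes tested, 3 lay below (CCN1, CCN2 and FOSB) and 1 above (BTG2), 13.6% and 4.55% beside 5.67% and 7.12%. Without GFP replicate 2 or without untreated replicate 2, 6 of them lay below, beside 9.61% and 9.09% of all genes then tested. The 29 tested NF-kB and inflammatory genes gave 1 below (TRAF1) and 0 above, 3.45% and 0% beside 5.67% and 7.12% of all tested genes. The median log2 fold change was -0.70, with -0.14 against GFP and -1.15 against untreated cells. The mean level of this list, centred over the 6 libraries, was 1.89 in untreated replicate 1, between -0.74 and -0.06 in the other controls, and -0.22 and -0.19 in the CRNN libraries.

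Among genes with a symbol that lay below the controls with an average of at least 1 log2 CPM, MIR1915HG and SUSD2 had the widest gaps. SUSD2, a membrane protein with a sushi domain, held 2.9 and 2.5 CPM with CRNN, 31.6 and 8.06 with GFP and 18.7 and 5.8 in untreated cells (log2 fold change -2.57, SE 0.68). Its CRNN libraries were alike, and GFP replicate 1 and untreated replicate 1 were the highest. MIR1915HG, a long noncoding RNA, held 2.54 and 2.45 CPM in CRNN cells, against 5.66 and 5.19 in GFP cells and 6.61 and 6.37 in untreated ones (log2 fold change -1.26, SE 0.27). Every pair of replicates lay close together for this gene. SLC7A11, the cystine importer and an NRF2 target, held 8.98 and 7.8 CPM in the CRNN pair, 16 and 20.5 CPM in the GFP pair and 19.4 and 14.5 CPM in the untreated pair (log2 fold change -1.07, SE 0.25). INHBB, a subunit of activin B, held 9.16 and 9.54 CPM with CRNN, 26.6 and 16.4 with GFP and 16.3 and 19 in untreated cells (log2 fold change -1.06, SE 0.28). LOXL2, which cross-links collagen, held 21.8 and 19.6 CPM in CRNN cells, against 49.6 and 35.6 in GFP cells and 32.2 and 32.7 in untreated ones (log2 fold change -0.86, SE 0.26). The 4 controls of each of these 3 genes were less than 2-fold apart, and both CRNN libraries lay under them. On the NRF2 list SLC7A11 was the 1 of 21 tested members outside the controls, 4.76% beside 5.67% of all tested genes below. ALPP, placental alkaline phosphatase, held 5.26 and 4.9 CPM in the CRNN pair, 8 and 14.1 CPM in the GFP pair and 9.63 and 14.4 CPM in the untreated pair, and its reads may be shared with near-identical relatives. The remaining named genes on this side were ANKRD33B, ZNF407, MARCHF1, RBM24 and KLC1-AS1, with gaps between 0.52 and 0.64 log2 units. KLC1-AS1 is antisense to KLC1. The strand setting of the counting is not given in the sources used here, so reads of the pair may be mixed. The same limit holds for other genes named here that overlap a gene on the opposite strand. Among these are CRNN, SESN3, TMEM229B, MMP1, CERS3, LOXL2, ZNF407, SLC7A11 and ANKRD33B.

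On the upper side, SESN3 and TMEM229B stood next to the interferon genes. SESN3, a stress-induced regulator of mTORC1, held 8.61 and 7.58 CPM with CRNN, 1.4 and 2.71 with GFP and 0.84 and 2.76 in untreated cells (log2 fold change 2.08, SE 0.44). TMEM229B, a transmembrane protein, held 5.58 and 5.62 CPM in CRNN cells, against 1.4 and 1.44 in GFP cells and 2.14 and 2.12 in untreated ones (log2 fold change 1.64, SE 0.30). The replicates of every group lay close together for TMEM229B, while those of both control groups spread for SESN3. C1orf21 held 10.8 and 12 CPM in the CRNN pair, 3.53 and 5.51 CPM in the GFP pair and 5.35 and 4.96 CPM in the untreated pair (log2 fold change 1.24, SE 0.26). GJA1, connexin 43 of gap junctions, held 5.21 and 5.26 CPM with CRNN, 1.56 and 2.71 with GFP and 2.83 and 2.72 in untreated cells (log2 fold change 1.09, SE 0.31). For both genes GFP replicate 1 was the lowest library and the other 3 controls nearly matched. H2BC26, a histone H2B gene on chromosome 1, held 109 and 89.7 CPM in CRNN cells, against 50.2 and 29.2 in GFP cells and 32.2 and 46.6 in untreated ones (log2 fold change 1.33, SE 0.27). Its neighbour H2AC25, 230 bases away, cleared the controls by 0.65 log2 units, and histone genes share sequence, so their reads are uncertain. ACKR3, an atypical chemokine receptor, held 28.2 and 30.3 CPM in the CRNN pair, 4.93 and 16.8 CPM in the GFP pair and 4.35 and 13.9 CPM in the untreated pair. PTPRZ1, a receptor tyrosine phosphatase, held 21.2 and 27.7 CPM with CRNN, 2.03 and 6.78 with GFP and 8.06 and 12.6 in untreated cells. CERS3, a ceramide synthase of the epidermal barrier, held 2.77 and 3.79 CPM in CRNN cells, against 1.51 and 1.52 in GFP cells and 0.535 and 1.6 in untreated ones. All 3 had an untreated or GFP first replicate as their lowest library and untreated replicate 2 or GFP replicate 2 as the highest control.

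Above the controls stood 3 matrix metalloproteinase genes of chromosome 11. MMP1, interstitial collagenase, held 70.6 and 96.3 CPM in the CRNN pair, 3.48 and 40.6 CPM in the GFP pair and 23.3 and 22.2 CPM in the untreated pair (log2 fold change 1.90, SE 0.65). MMP10, stromelysin 2, whose gene lies 8773 bases from MMP1, held 62.5 and 96.1 CPM with CRNN, 0.623 and 41.9 with GFP and 29.8 and 16.5 in untreated cells (log2 fold change 1.84, SE 0.93). MMP13, collagenase 3, held 35.2 and 60.3 CPM in CRNN cells, against 2.08 and 33 in GFP cells and 12.3 and 12.1 in untreated ones. All 3 were lowest in GFP replicate 1, and GFP replicate 2 was the nearest control, by only 0.10 log2 units for MMP13. Of the 23 tested members of the protease and invasion list, these were the 3 above (13% beside 7.12%), and TIMP2, an inhibitor of metalloproteinases, was the 1 below (4.35% beside 5.67%). Without untreated replicate 1, 6 were above, and without GFP replicate 1, 4 were below, beside 11.8% of all genes then tested in each case. MMP7, on the same chromosome, overlapped the controls. It held 2.09 and 4.01 CPM with CRNN, 0.156 and 0.958 with GFP and 2.29 and 0.4 in untreated cells.

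Of 22 regulators of squamous identity tested, 5 lay above all controls (22.7% beside 7.12% of all tested genes). PRDM1 lay below, 1 of 22 being 4.55% beside 5.67% of all tested genes. Without GFP replicate 2, 4 members lay below, beside 9.61% of all genes then tested. SOX2, which is amplified in many squamous carcinomas, held 11.5 and 16.4 CPM in the CRNN pair, 1.97 and 6.86 CPM in the GFP pair and 1.03 and 9.25 CPM in the untreated pair (log2 fold change 1.55, SE 0.69). ELF3, an epithelial ETS factor, held 107 and 121 CPM with CRNN, 35.3 and 84.2 with GFP and 77 and 86.5 in untreated cells (log2 fold change 0.69, SE 0.34). The second replicates of the controls were nearest in both genes. FOXE1, GRHL2 and PAX9 cleared the controls by 0.22, 0.04 and 0.03 log2 units.

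Of 23 junction genes tested, 3 lay below all controls and 0 above, which is 13% and 0% beside 5.67% and 7.12% of all tested genes. Without GFP replicate 1, 6 lay below, beside 11.8% of all genes then tested, and without CRNN replicate 1, 3 lay above, beside 17.6%. CDH1, E-cadherin of adherens junctions, held 79.5 and 73.3 CPM in CRNN cells, against 108 and 111 in GFP cells and 281 and 116 in untreated ones (log2 fold change -1.01, SE 0.43). Untreated replicate 1 was far above the other 3 controls, and the CRNN libraries were below all of them. Without it the log2 fold change of CDH1 was -0.55. PKP2, a desmosomal plakophilin, held 47.1 and 50.5 CPM in the CRNN pair, 63.8 and 62.7 CPM in the GFP pair and 77.3 and 76.7 CPM in the untreated pair. Its controls were close together, and both CRNN libraries lay below them. None of 19 keratins and none of 14 hemidesmosome and basement membrane genes had both CRNN libraries outside the controls. KRT5, the basal keratin of squamous epithelium, held 3398 and 3974 CPM with CRNN, 1902 and 2872 with GFP and 2372 and 4270 in untreated cells, with untreated replicate 2 the highest.

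The late differentiation genes to which cornulin belongs left the range of the controls about as often as all tested genes. Of 32 tested cornified envelope genes, 1 was above (CALML3), which is 3.13% beside 7.12%, and 3 were below (PPL, SPRR2D and LCE3D), which is 9.38% beside 5.67%. Without CRNN replicate 1, 11 were below, beside 16.1% of all genes then tested, and without untreated replicate 1, 6 were, beside 9.86%. Up to 4 were above with 1 library left out, beside 10.4% to 17.6% of all genes then tested. With all 6 libraries, 26 of the 32 log2 fold changes were negative, with a median of -0.50. That median was -0.92 against GFP and 0.15 against untreated cells. CALML3, a calmodulin-like protein of epithelium, held 18 and 21.4 CPM in CRNN cells, against 9.04 and 8.14 in GFP cells and 10.5 and 12.2 in untreated ones (log2 fold change 0.98, SE 0.24). PPL, periplakin, which links the envelope to keratin filaments, held 168 and 163 CPM in the CRNN pair, 250.2 and 273 CPM in the GFP pair and 224 and 208 CPM in the untreated pair (log2 fold change -0.53, SE 0.23). Groups did not overlap in either gene, and their controls were close together. The nearest tested genes on either side of CRNN were FLG, FLG2, HRNR, LCE3D, SPRR1A and IVL, all of the epidermal differentiation complex, and they were read thinly or spread widely. FLG, profilaggrin, held 0.861 and 3.12 CPM with CRNN, 1.09 and 9.98 with GFP and 0.649 and 1.72 in untreated cells. HRNR, hornerin, held 3.13 and 1.47 CPM in CRNN cells, against 5.04 and 7.82 in GFP cells and 1.38 and 3.84 in untreated ones. SPRR1A, a small proline-rich envelope protein, held 8.93 and 9.32 CPM in the CRNN pair, 56.9 and 3.91 CPM in the GFP pair and 1.87 and 10.6 CPM in the untreated pair. The 2 GFP libraries differed several-fold in FLG and SPRR1A, and the CRNN libraries of all 3 genes lay within the range of the controls. IVL, involucrin, held 1.04 and 1.16 CPM with CRNN, 2.91 and 0.718 with GFP and 3.17 and 1.6 in untreated cells, and it overlapped as well. LCE3D was below all controls with at most 0.136 CPM in a CRNN library.

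Among mitosis genes the members outside the controls lay above them, with 5 of 33 above (15.2% beside 7.12%) and 0 below. The median log2 fold change of the list was 0.17, with -0.06 against GFP and 0.59 against untreated cells. Without CRNN replicate 1, 12 were above, beside 17.6% of all genes then tested, and 8 without GFP replicate 1, beside 11.7%. Over all settings run, 3 to 12 members lay above and 0 to 12 below. Most lay below with GFP replicate 1 and untreated replicate 1 left out together, beside 21.7% of all genes then tested. CCNB1, cyclin B1, held 394 and 413 CPM in CRNN cells, against 334 and 294 in GFP cells and 146 and 331 in untreated ones (log2 fold change 0.55, SE 0.33). CDK1, its kinase partner, held 127 and 165 CPM in the CRNN pair, 122 and 108 CPM in the GFP pair and 74.8 and 115 CPM in the untreated pair. PTTG1, securin, held 88.8 and 102 CPM with CRNN, 66.2 and 67.6 with GFP and 41.1 and 81.9 in untreated cells. Untreated replicate 1 was the lowest library in these 3 genes and the lowest control for 30 of the 33, and without it the log2 fold change of CCNB1 was 0.33. BIRC5 and CCNA2 cleared the controls by 0.04 and 0.02 log2 units. Replication genes gave 1 above (GINS1) and 1 below (POLE) of 31, each 3.23%, beside 7.12% and 5.67% of all tested genes. Without CRNN replicate 1, 9 replication genes were above, beside 17.6% of all genes then tested.

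Stress and survival lists differed in the share of their members outside the controls. The p53 and cell-cycle inhibitor list had 4 of 23 on each side, 17.4% beside 7.12% of all tested genes above and 5.67% below: FAS, SESN1, TP53I3 and BTG1 above, and BAX, GADD45B, PLK2 and ZMAT3 below. PLK2, a stress-induced kinase, held 169.5 and 162 CPM in CRNN cells, against 253 and 200.01 in GFP cells and 823 and 226 in untreated ones, and untreated replicate 1 stood apart from the other controls. Without that library the log2 fold change of PLK2 was -0.45. Among apoptosis regulators 2 of 24 were above (8.33% beside 7.12%), CASP10 and GSDME, an initiator caspase and a pore-forming gasdermin. Without CRNN replicate 1, 6 of the regulators were above, beside 17.6% of all genes then tested. The 22 genes of the unfolded protein and integrated stress responses gave 2 below (9.09% beside 5.67%), CHAC1 and HSPA5, and 0 above. Without CRNN replicate 2, 6 of the 22 were below, beside 9.51% of all genes then tested. HSPA5, the chaperone BiP of the endoplasmic reticulum, held 164 and 154 CPM in the CRNN pair, 176 and 347 CPM in the GFP pair and 239 and 180.3 CPM in the untreated pair. Of 23 genes of glycolysis and hypoxia, EGLN3, CA9 and BNIP3 were above (13% beside 7.12%), and VEGFA and HK2 below (8.7% beside 5.67%). Without GFP replicate 1, 8 were above, beside 11.7% of all genes then tested. EGLN3, a prolyl hydroxylase that marks hypoxia-inducible factors for degradation, held 12.9 and 14.1 CPM with CRNN, 5.87 and 7.5 with GFP and 5.5 and 10.4 in untreated cells (log2 fold change 0.88, SE 0.29). VEGFA, the vascular growth factor, held 29.3 and 30.3 CPM in CRNN cells, against 56.3 and 33 in GFP cells and 60.8 and 36.3 in untreated ones (log2 fold change -0.65, SE 0.30). Neither gene overlapped its controls.

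Of 24 Notch and Wnt genes, HES1, HEY1 and WNT10A lay above the controls and WNT7B and NOTCH2 below. These are 12.5% and 8.33% beside 7.12% and 5.67% of all tested genes. Without CRNN replicate 1 or without GFP replicate 2, 8 were above, beside 17.6% and 10.9% of all genes then tested. HES1, a Notch target, held 46.9 and 54.1 CPM in the CRNN pair, 29.2 and 40.3 CPM in the GFP pair and 19.4 and 37.8 CPM in the untreated pair. WNT7B, a Wnt ligand, held 12.9 and 9.41 CPM with CRNN, 42.7 and 15.9 with GFP and 26.1 and 17.6 in untreated cells (log2 fold change -1.20, SE 0.42). Of 15 S100 proteins, S100A11 was above and S100A3 below, each 6.67%, beside 7.12% and 5.67% of all tested genes. Among 14 replication-dependent histones and linker histones, 2 were above (14.3% beside 7.12%), H2BC11 among them, and 9 were without GFP replicate 1, beside 11.7% of all genes then tested. Of 15 mesenchymal markers tested, 2 lay above (13.3% beside 7.12%) and 1 below (6.67% beside 5.67%). Their median log2 fold change was -0.20, and 10 of the 15 values were negative. VIM, vimentin, a mesenchymal filament, was low and above the controls, with 1.59 and 2.1 CPM in CRNN cells, against 0.779 and 1.2 in GFP cells and 0.267 and 0.48 in untreated ones. CD14, a receptor for lipopolysaccharide, was the 1 of 3 tested immune markers above, with 8.34 and 7.22 CPM in the CRNN pair, 4.41 and 4.23 CPM in the GFP pair and 5.27 and 5.52 CPM in the untreated pair. The other 2, LYZ and PTPRC, were under 1 CPM in all libraries and overlapped the controls. Their log2 fold changes were -0.30 and -0.83.

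No member lay outside the controls on 8 of the 35 lists, which hold 151 tested genes, beside 7.12% above and 5.67% below of all tested genes. Besides keratins and hemidesmosome genes, these were 49 cytosolic ribosomal proteins, 26 genes of cholesterol and fatty acid synthesis, 24 large chromatin regulators, 11 heat shock genes, and the fibroblast and endothelial markers. Without 1 library this no longer held for any of the 8. Up to 6 ribosomal protein genes lay below without CRNN replicate 2 or GFP replicate 2, beside 9.51% and 9.61% of all genes then tested. Of 35 nuclear genes of oxidative phosphorylation, 1 (COX5A) was above (2.86% beside 7.12%) and 0 below (0% beside 5.67%). Without CRNN replicate 1, and so with CRNN replicate 2 alone, 23 of them were above, beside 17.6% of all genes then tested. Without untreated replicate 2, 9 of them were above, beside 10.4%. The mitochondrially encoded mRNAs gave 1 of 13 below (MT-CO2), 7.69% beside 5.67%, although all 13 log2 fold changes were negative, with a median of -0.69. MT-ND1, a subunit of complex I, held 187 and 85.9 CPM with CRNN, 385 and 343 with GFP and 175 and 264 in untreated cells. Its CRNN libraries differed from each other, and CRNN replicate 1 lay close to untreated replicate 1. Without CRNN replicate 1, 12 of the 13 lay below the controls, beside 16.1% of all genes then tested, and without untreated replicate 1, 10 of the 13 did, beside 9.86%.

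**Figure D5:**
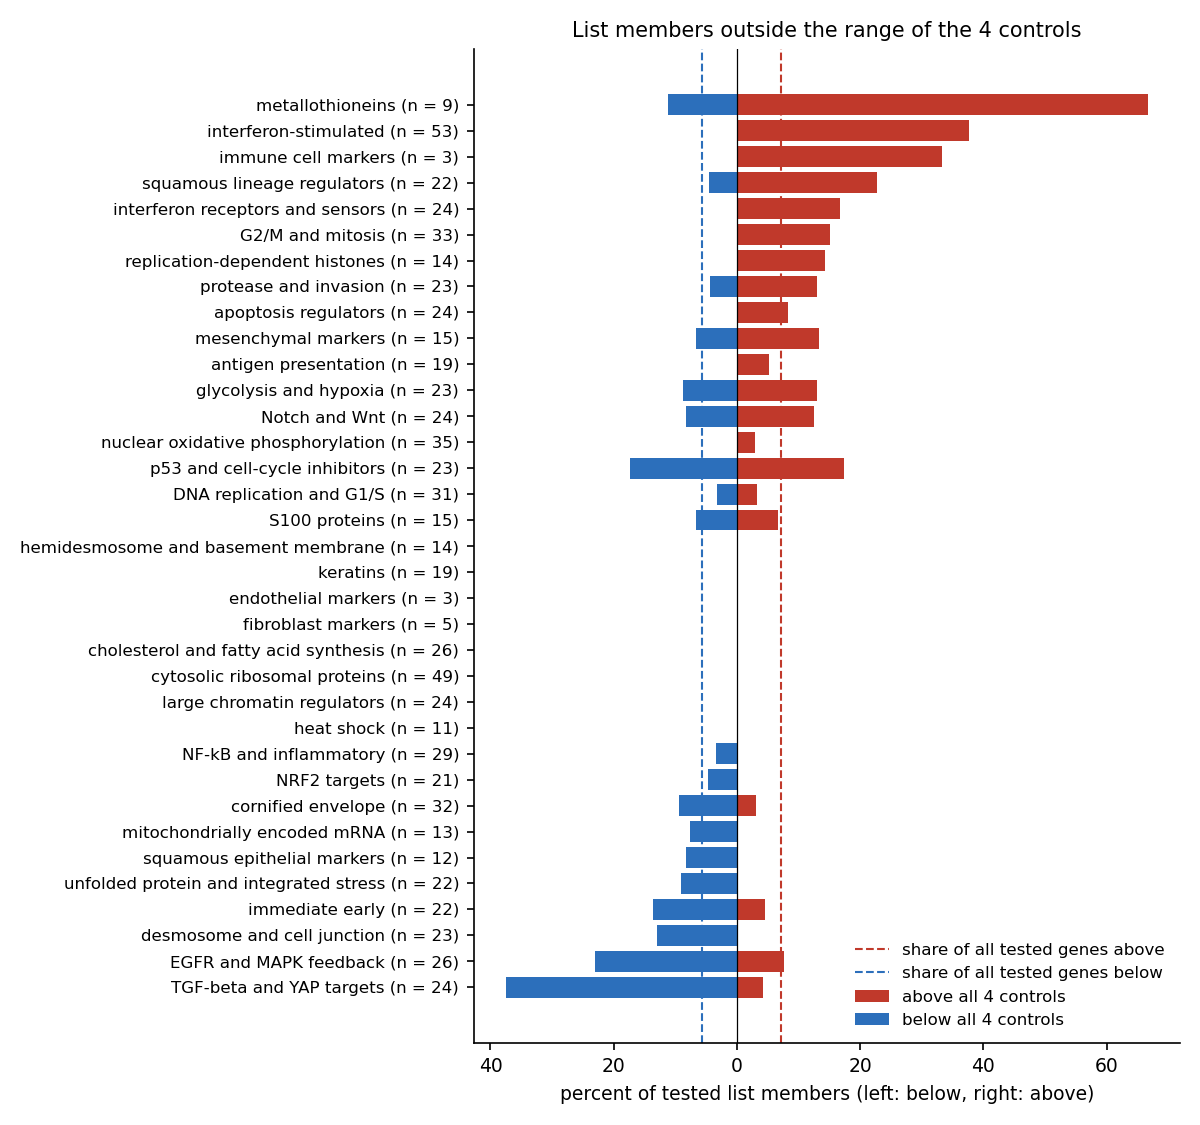
Percent of the tested members of each of 35 gene lists (rows) with both CRNN libraries above (red, to the right) or below (blue, to the left) all 4 controls; dashed lines give the same shares over all tested genes, 7.12% and 5.67%. Metallothioneins (66.7%) and interferon-stimulated genes (37.7%) reach furthest right, and TGF-beta and YAP targets (37.5%) furthest left.

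The 2096 genes differed from the tested genes in length and kind. Of those above, 79.7% were protein coding and 8.54% long noncoding RNA, beside 79.0% and 11.9% of all tested genes. Of those below, 69.7% were protein coding and 19.8% long noncoding RNA. The median transcript length was 2750 bases above and 3763 below, with 3308 over all tested genes, and the median GC content was 49.1% and 48.7% beside 48.2%. By these medians genes above were shorter and genes below longer than the whole. With a gap of at least 0.5 log2 CPM this did not hold below. The median length was then 2003 bases for the 70 genes below and 2750 for the 89 above. Both sets had lower levels, with a median of 2.5 and 2.72 log2 CPM beside 3.47. With length and GC content fitted in each library, the counts were 1326 above and 1123 below. Scaled by library totals alone, the balance turned, to 930 above and 1071 below, while upper-quartile scaling gave 1311 and 832.

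The joined control side was not uniform. GFP against untreated cells, tested with edgeR in a fit of 3 groups, gave 0 genes past an adjusted p of 0.05 (0%) and 1137 at an unadjusted p under 0.05 (6.93%). Without untreated replicate 2, 809 genes passed the adjusted p. As log2 differences of GFP minus untreated cells, CCN2 had -3.79, IFI27 -2.74, IFI44L -2.14 and IFI6 -1.82. Measured against each control alone, with the CRNN libraries shared, the log2 fold change of IFI27 was 5.18 against GFP and 2.44 against untreated cells. For MT2A the values were 1.61 against GFP and 0.96 against untreated cells, and for CCN2 they were -1.80 against GFP and -5.59 against untreated cells. SESN3 and SLC7A11 differed little between the controls: SESN3 had 2.00 against GFP and 2.17 against untreated cells, and SLC7A11 had -1.12 against GFP and -1.01 against untreated cells. With 3 groups fitted and CRNN set against the mean of both controls, IFI6 (log2 fold change 3.84, adjusted p = 0.0174) and IFI27 (3.81, adjusted p = 0.0242) passed in edgeR beside CRNN.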

How the data were processed

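Total RNA of 6 Cal27 libraries was sequenced, and the deposited table holds whole-number counts per gene, which the authors did not normalize. Per the submitters' processing notes, FastQC 0.11.7, bcl2fastq, STAR 2.6, HTSeq 0.6.1 and edgeR were used, and the notes name hg19, GRCh37 and GRCh38; which of these builds served alignment, and the strand setting, are not given in the sources used here. Gene names came from GENCODE 44 by Ensembl identifier, matching 51996 of 57820 rows. Library totals ran from 11817105 to 28041227 counts. Precision is counting error plus the spread within the CRNN pair and among the 4 joined controls. With 4 residual degrees of freedom, p-values measure the spread among these 6 cultures.

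Groups were taken from the labels. Genes were kept by edgeR's filterByExpr (minimum count 10, minimum total 15), leaving 16396, of which 464 have no name. CRNN was tested against the 4 controls in edgeR 4.0.16 (R 4.3.3) with TMM factors and the quasi-likelihood test, with Benjamini-Hochberg adjustment. The order of the libraries was read on log2 CPM with a prior count of 2. Fits of 3 groups, DESeq2 1.42.0, limma 3.58.1 (voom), other scalings and filters, a fit with GC content and length, a replicate block and fits without each library were alternatives. The edgeR test was also tried on simulated data built from the means, library sizes and dispersions of these counts. Genes were named by rule: those passing the test, filled to 15 on each side with the named genes of widest gap at an average of at least 1 log2 CPM, up to 4 members of each list with the smallest p, the 3 nearest tested genes on each side of CRNN, and 4 with the largest GFP difference from untreated cells. Other list members outside the controls, genes with a gap of 1, genes at the edge of the order rule, and a few list members inside the controls (KRT5, MTF1, SLC30A1, MX1, ISG15, XAF1, with TAGLN off the lists) were added after their values were seen. Some list members are not reported here by name. Members and lists were chosen with earlier results of these data known. Promoter sequences are from RefSeq (GRCh38.p14).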

Additional observations from a re-analysis of the deposited data

Results flagged for a closer look

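Among 84 genes examined, 9 had 1 control library far from the other 3: the distance of that library to its nearest neighbour, as a share of the range of all 4 controls, passed Dixon's 95% critical value. Chance alone marks about 1 group in 20, and 6.57% of all tested genes pass the same value. Untreated replicate 1 was the distant library for 6 of the 9, GFP replicate 1 for 2, GFP replicate 2 for 1 and untreated replicate 2 for 0. Over all tested genes past the value, these libraries set 558, 321, 139 and 60.

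Untreated replicate 1 was the lowest control for the ceramide synthase CERS3 (0.942), for cyclin B1, CCNB1 (0.849), and for MARCHF1, a membrane ubiquitin ligase (0.83). It was the highest for E-cadherin, CDH1 (0.926), the kinase PLK2 (0.835) and CHAC1, which degrades glutathione (0.851). GFP replicate 1 was the lowest control for connexin 43, GJA1 (0.931), and for the epithelial factor ELF3 (0.871). GFP replicate 2 was the highest for FLG2, filaggrin 2 (0.895).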

How the results depend on the processing

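CRNN kept its direction and passed in every setting run: its log2 fold change was 8.34 to 8.60 with 1 library left out and 8.34 to 8.77 over all settings, and its largest adjusted p was 0.0355, against untreated libraries only. The number of genes called higher and lower was 3 and 2 with DESeq2, 12 and 1 against GFP libraries only, 3 and 0 in the fit of 3 groups, and 1 to 12 and 0 to 0 with 1 library left out. With GFP replicate 1 and untreated replicate 1 left out together, a setting chosen after seeing the data, the calls were 41 and 7. Genes above all controls numbered 2091 with no filter, 1678 to 3115 with 1 library left out and 3354 with that pair left out; genes below numbered 1462 to 2848 and 3415. A gap of 1 was met above by 15 to 54 genes with 1 library left out and by 76 without the pair, and below by 9 to 210 and by 29. Below, it was met by 16 genes with no filter, by 5 at 1 CPM in at least 2 libraries and by 17 with a prior count of 0.5. GFP against untreated cells gave 195 genes with no filter and 0 to 809 with 1 library left out. Fewer libraries make an order easier to meet; for the other shifts the cause was not tested.

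With the replicate number as a block, CRNN had a log2 fold change of 8.50 (edgeR adjusted p = 1.69e-05), and 1 gene was higher and 0 lower. Deviations of samples with the same number correlated, over 11729 genes, by 0.255 for CRNN with GFP, by -0.0707 for CRNN with untreated cells and by 0.193 for the control groups, so the numbers were not taken as pairs.

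Of the genes near CRNN, FLG, negative with all libraries, turned to 0.015 with limma-voom, ran from -1.92 to 0.78 with 1 library left out (positive without GFP replicate 2) and came to 0.75 against untreated cells only. SPRR1A turned to 0.16 with limma-voom, ran from -1.40 to 0.73 with 1 library left out (positive without GFP replicate 1), and came to 0.26 with the pair left out and 0.54 against untreated cells only. FLG2 turned to 0.88 with limma-voom and 0.37 in the fit of 3 groups; the cause was not tested. All values are log2 fold changes. Depth limits genes under about 30 counts, where a single read shifts the order.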
